A study of Mus musculus with 12 samples.

Results

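Mice of 4 genotypes allow a question that no single pair of genotypes answers, namely whether losing PPARg2 does the same thing to the islet transcriptome when leptin is present and when it is absent. The genotypes were WT, PPARg2KO (both copies of the PPARg2 isoform deleted), OB (ob/ob, without functional leptin) and DKO (both defects together, also called POKO). The interaction is the difference from OB to DKO minus the difference from WT to PPARg2KO, on the log2 scale. A value of 0 means that PPARg2 loss had the same effect on both backgrounds, a positive value that its effect was higher on the obese background, and a negative value that it was lower there. Every one of the 12 arrays of the series, 3 per genotype, enters it with equal weight.

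All mice had a mixed C57BL/6 x Sv129 background and ate chow, and the labels give an age of 4 weeks for all groups. Another age, of a week more, stands in the study's text, which also gives the sex as female. The sex-linked genes fitted that sex, since Xist was well above background on all 12 arrays and the 4 Y-linked genes with a probe on 0. Each array carried RNA pooled from the islets of 3 to 4 mice, isolated with collagenase, picked by hand and kept in culture overnight. Both defects were present in the whole animal from conception, so the groups do not model a loss limited to islet cells. The arrays came as 3 slides with 1 array of each genotype, and each genotype had the same place on every slide, so that genotype and place on the slide cannot be told apart.

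PPARg is a nuclear receptor that binds fatty acids and pairs with RXR on DNA. Its PPARg2 isoform starts from its own promoter and is best known as the driver of fat cell formation and of fat storage in adipose tissue. Leptin is the hormone by which fat cells report energy stores to the brain. Mice that lack it overeat, become obese and insulin resistant, and enlarge their islets to secrete more insulin. A mouse without leptin and without PPARg2 stores less fat in adipose tissue for the same energy intake, with lipid reaching other tissues instead. Islets hold insulin-secreting beta cells beside alpha, delta and PP cells, a dense capillary bed and resident immune cells. Sterol synthesis genes, which SREBP factors induce through sterol regulatory elements when cell cholesterol is low, and interferon-stimulated genes, which STAT and IRF factors induce through a response element in their promoters, are the gene groups with the highest share of positive and of negative members below.

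Promoter windows are shown for 4 genes, because they place those factors' known motifs at members of both groups and show the start that the PPARg2 deletion concerns. The sequences are from RefSeq (GRCm38.p6), cover the 250 bases before an annotated start and run 5′ to 3′ on the gene's strand. Capitals mark a match to the sterol regulatory element TCACNCCAC in Hmgcs1 (chr13:119690101-119690350, plus strand, match starting at -137) and to the interferon response element, taken as 2 GAAA blocks with 2 free bases between them and read here as the reverse complement, in Ifit1 (chr19:34640639-34640888, plus strand, first match at -104) and Ifit3 (chr19:34583279-34583528, plus strand, first match at -156). The window before the most downstream Pparg start (chr6:115421816-115422065, plus strand) holds neither motif, nor a PPAR element, taken as 2 AGGTCA half-sites with 1 free base between them, and is all in lower case.
Hmgcs1: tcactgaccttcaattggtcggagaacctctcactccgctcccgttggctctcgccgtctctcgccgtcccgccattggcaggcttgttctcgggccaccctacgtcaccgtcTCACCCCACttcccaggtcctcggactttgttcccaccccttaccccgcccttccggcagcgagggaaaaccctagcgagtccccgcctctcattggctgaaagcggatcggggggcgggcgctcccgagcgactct
Ifit1: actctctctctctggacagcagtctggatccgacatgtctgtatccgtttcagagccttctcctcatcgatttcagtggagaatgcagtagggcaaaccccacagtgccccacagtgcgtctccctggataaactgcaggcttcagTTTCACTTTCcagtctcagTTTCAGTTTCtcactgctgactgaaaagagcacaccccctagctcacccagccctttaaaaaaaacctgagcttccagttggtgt
Ifit3: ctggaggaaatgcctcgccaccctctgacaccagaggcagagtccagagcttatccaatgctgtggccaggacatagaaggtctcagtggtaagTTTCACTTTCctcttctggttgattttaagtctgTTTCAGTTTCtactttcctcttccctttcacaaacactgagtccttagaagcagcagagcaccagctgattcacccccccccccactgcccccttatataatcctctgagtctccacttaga
Pparg: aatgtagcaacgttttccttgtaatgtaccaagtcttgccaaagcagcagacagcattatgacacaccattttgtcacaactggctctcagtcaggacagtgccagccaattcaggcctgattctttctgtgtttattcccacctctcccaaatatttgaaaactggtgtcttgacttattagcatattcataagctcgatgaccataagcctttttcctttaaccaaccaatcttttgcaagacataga
Both strands were searched, and none of the 3 motifs contains another. The sterol motif occurred in 346 of 32851 mouse promoter windows of this length (1.053%), the interferon motif in 978 (2.977%) and the PPAR element in 11 (0.033%). Of the cholesterol genes 15 were matched to a window and 1, Hmgcs1, held the sterol motif. Of the interferon-stimulated genes 21 were matched and 11 held the interferon motif, against 3.463% of all genes: Ifit1, Ifit3, Igtp, Oas1a, Isg15, Gbp2, Gbp3, Cxcl10, Oas3, Stat2 and Rsad2. Among the 28 genes named below for the size or p of their own interaction 21 were matched, and 0 held any of the 3 motifs.

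The targeted receptor was low where it should be. The Pparg probe (NM_011146) read 8.87, 8.98 and 8.85 (log2 normalized signal, replicates 1 to 3) in WT and 7.44, 7.27 and 6.60 in PPARg2KO. In OB it read 8.54, 9.77 and 9.61, and in DKO 6.41, 7.11 and 7.14. All 6 arrays without PPARg2 were below all 6 arrays with it, by 1.79 on the lean background (limma unadjusted p = 5.3e-04, adjusted p = 0.257) and by 2.42 on the obese background (unadjusted p = 5.6e-05, adjusted p = 0.23). The interaction of Pparg itself was -0.62 (95% CI -1.73 to 0.48, unadjusted p = 0.234, adjusted p = 0.585), so that an unequal loss was not detected. Whether this probe also reads the PPARg1 isoform is not given in the sources used here. Leptin (Lep, NM_008493) is a hormone of fat cells and was not well above background on any array (1.25 to 1.42), so it cannot check the ob/ob label. Among the fat cell markers, Adipoq was well above background on 0 arrays, but 4 of the 11 with a probe were so on every array of at least 1 genotype.

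The islets carried the hormones of every endocrine type, Ins1, Ins2, Gcg, Sst and Ppy, well above background on all 12 arrays, and also the acinar enzymes amylase (Amy2a5, 18.19 to 18.38) and carboxypeptidase A1 (Cpa1, 17.87 to 18.00). Acinar genes took 10.4 to 12.1% of the summed signal of an array and beta cell genes 1.77 to 3.94%. The median processed signal before normalization was 20.9 to 27.0 in WT, 23.0 to 30.4 in PPARg2KO, 30.7 to 40.6 in OB and 31.6 to 33.6 in DKO, and 22046 to 26407 of 41174 probes were well above background. Since whole islets were hybridised, fewer cells of a type and less RNA per cell cannot be told apart in any value below.

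No probe passed the test of the interaction. With Benjamini-Hochberg adjustment over 41174 probes limma called 0 at an adjusted p of 0.05, and the smallest adjusted p was 0.118. At an unadjusted p under 0.05 there were 5721 probes (13.9%), of which 3101 were positive (7.53%) and 2620 negative (6.36%). Counting 1 probe for each of 17305 named genes, 1501 were positive (8.67%) and 1282 negative (7.41%), with a median interaction of 0.03. For comparison, 4555 probes passed the adjusted test in OB against WT, 0 in PPARg2KO against WT, 2 in DKO against OB and 4 in DKO against PPARg2KO. In simulated arrays of this size the same fit found 44 of 50 probes given an interaction of 4, 37 of 50 at -4, 27 of 50 at 2 and 31 of 50 at -2. The fit also made 11 false calls there. The simulated noise was independent, and the other simulated probes had no genotype difference, unlike these data. Under those conditions interactions of about 4-fold were within reach for only part of the probes. Everything named below rests on unadjusted p-values.

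The form of the interaction was mostly a crossing. Of the 3101 positive probes 3029 (97.7%) were lower in PPARg2KO than in WT and higher in DKO than in OB, and of the 2620 negative ones 2537 (96.8%) did the opposite. Opposite signs on the 2 backgrounds were also found in 65.0% of all probes, and a large interaction makes them likely, so these shares describe the genes and test nothing. Among genes well above background on all 12 arrays, 1330 were positive and 1092 negative. The genotype whose mean lay furthest from the other three was OB in 59.5% of the positive genes, against 45.6% of all such genes. It was DKO in 3.38% of the positive genes and 12.3% of all. Positive genes thus were for the most part genes with low values in OB, where DKO, WT and PPARg2KO lay closer together.

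**Figure D1:**
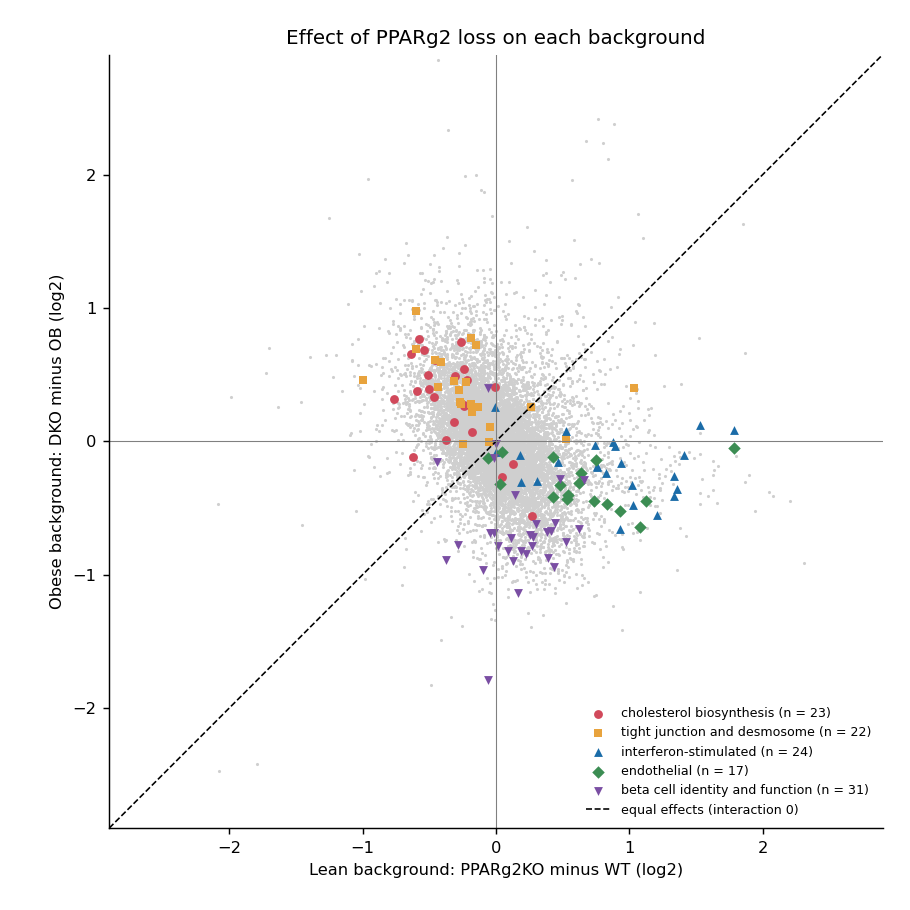
Effect of PPARg2 loss on each background for the 11764 named genes well above background on all 12 arrays (grey), with 5 gene lists in colour. The x axis is PPARg2KO minus WT and the y axis DKO minus OB, both on the log2 scale, and a point on the dashed diagonal has an interaction of 0. Cholesterol and junction genes lie mostly above the diagonal, and interferon-stimulated, endothelial and beta cell genes mostly below it.

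Across these 11764 genes the lean and the obese effect had a Pearson correlation of -0.36 with all arrays, and of -0.23, -0.13 and 0.19 within slides 1, 2 and 3. The lean and obese effects share no array, but genes are not independent replicates and the sign differed between slides, so no p is given.

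The strongest positive genes measured on every array were Serpinb5, Ddn, Slc5a10, Anxa10, Ccdc68, Dio3, BC051665 and Soat2. They are the 8 largest of 343 named genes that were well above background on all 12 arrays and positive at an unadjusted p under 0.01. Serpinb5 (NM_009257) encodes maspin, an epithelial serpin. It read 7.80, 8.32 and 6.74 in WT, 6.53, 6.87 and 6.57 in PPARg2KO, 6.87, 4.42 and 4.95 in OB and 7.26, 7.35 and 7.54 in DKO. All DKO arrays were above all OB arrays, WT and PPARg2KO overlapped, and OB replicate 1 stood well above the other OB arrays. Its interaction was 2.93 (SE 0.83, 95% CI 1.07 to 4.80), that is a 7.64-fold difference between the 2 effects (unadjusted p = 0.00594, adjusted p = 0.266). Ddn (NM_001013741), which encodes the cytoskeletal protein dendrin of podocytes and neurons, had the same size. It read 11.58 and 10.43 on WT replicates 1 and 3, 10.31, 8.85 and 10.10 in PPARg2KO, 9.41, 8.29 and 7.60 in OB and 10.37, 9.82 and 10.13 in DKO. The spot on WT replicate 2 was called an outlier by the scanner software and left out, so this fit used 11 arrays and gave 2.93 (SE 0.83, 95% CI 1.04 to 4.82, unadjusted p = 0.00711, adjusted p = 0.27). Neither WT and PPARg2KO nor OB and DKO overlapped.

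Slc5a10 and Dio3 were the members of this group that were high in the double mutant alone. Slc5a10 (NM_001033227), the sodium-coupled mannose and fructose transporter SGLT5, read 6.71, 6.87 and 7.25 in WT, 6.84, 6.66 and 6.25 in PPARg2KO, 7.06, 6.44 and 6.50 in OB and 9.64, 8.06 and 9.30 in DKO. The 3 DKO arrays were above the other 9, which lay between 6.25 and 7.25. Its interaction was 2.69 (SE 0.53, 95% CI 1.49 to 3.89, unadjusted p = 6.3e-04, adjusted p = 0.213), made up of 2.33 on the obese and -0.36 on the lean background. Dio3 (NM_172119) encodes type 3 deiodinase, which inactivates thyroid hormone. It read 7.20, 7.91 and 7.10 in WT, 6.63, 7.77 and 7.34 in PPARg2KO, 6.04, 6.32 and 7.20 in OB and 8.0, 9.12 and 8.44 in DKO. Here too all DKO arrays were above the other 9, and the interaction was 2.15 (SE 0.59, unadjusted p = 0.00526, adjusted p = 0.266).

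Anxa10 was lowest in PPARg2KO. This annexin of gastric epithelium (NM_011922) read 9.20, 9.51 and 9.17 in WT, 7.46, 7.11 and 7.33 in PPARg2KO, 7.85, 8.36 and 8.42 in OB and 9.18, 8.33 and 8.12 in DKO. All PPARg2KO arrays were below the other 9, while OB and DKO overlapped. All OB arrays were also below all WT arrays, with an OB minus WT difference of -1.08 (limma adjusted p = 0.0377). Its interaction of 2.32 (SE 0.38, 95% CI 1.47 to 3.17, unadjusted p = 1.5e-04, adjusted p = 0.17) was the best supported of these 8, with -1.99 on the lean and 0.33 on the obese background.

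The remaining 3 with a positive value had OB as the lowest genotype. Soat2 (NM_146064) encodes ACAT2, which esterifies cholesterol for storage and for lipoproteins. It read 8.44, 7.88 and 6.86 in WT, 7.57, 6.83 and 7.08 in PPARg2KO, 6.58, 6.09 and 5.64 in OB and 7.61, 7.21 and 7.28 in DKO, with all OB arrays below the other 9. The interaction was 1.83 (SE 0.55, unadjusted p = 0.00872, adjusted p = 0.274). Ccdc68 (NM_201362), a coiled-coil protein of the centriole, read 10.53, 10.39 and 9.30 in WT, 9.56, 8.52 and 9.45 in PPARg2KO, 8.90, 7.92 and 7.91 in OB and 9.74, 9.07 and 9.71 in DKO. WT replicate 3 fell within the range of PPARg2KO, DKO lay above OB on every array, and the interaction was 2.16 (SE 0.60, unadjusted p = 0.0056, adjusted p = 0.266). BC051665 (NM_199148) read 7.96, 7.51 and 6.90 in WT, 6.71, 6.22 and 7.02 in PPARg2KO, 6.33, 5.75 and 4.82 in OB and 7.27, 6.55 and 6.89 in DKO. DKO again lay above OB without overlap, and the interaction was 2.07 (SE 0.58, unadjusted p = 0.00576, adjusted p = 0.266).

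**Figure D2:**
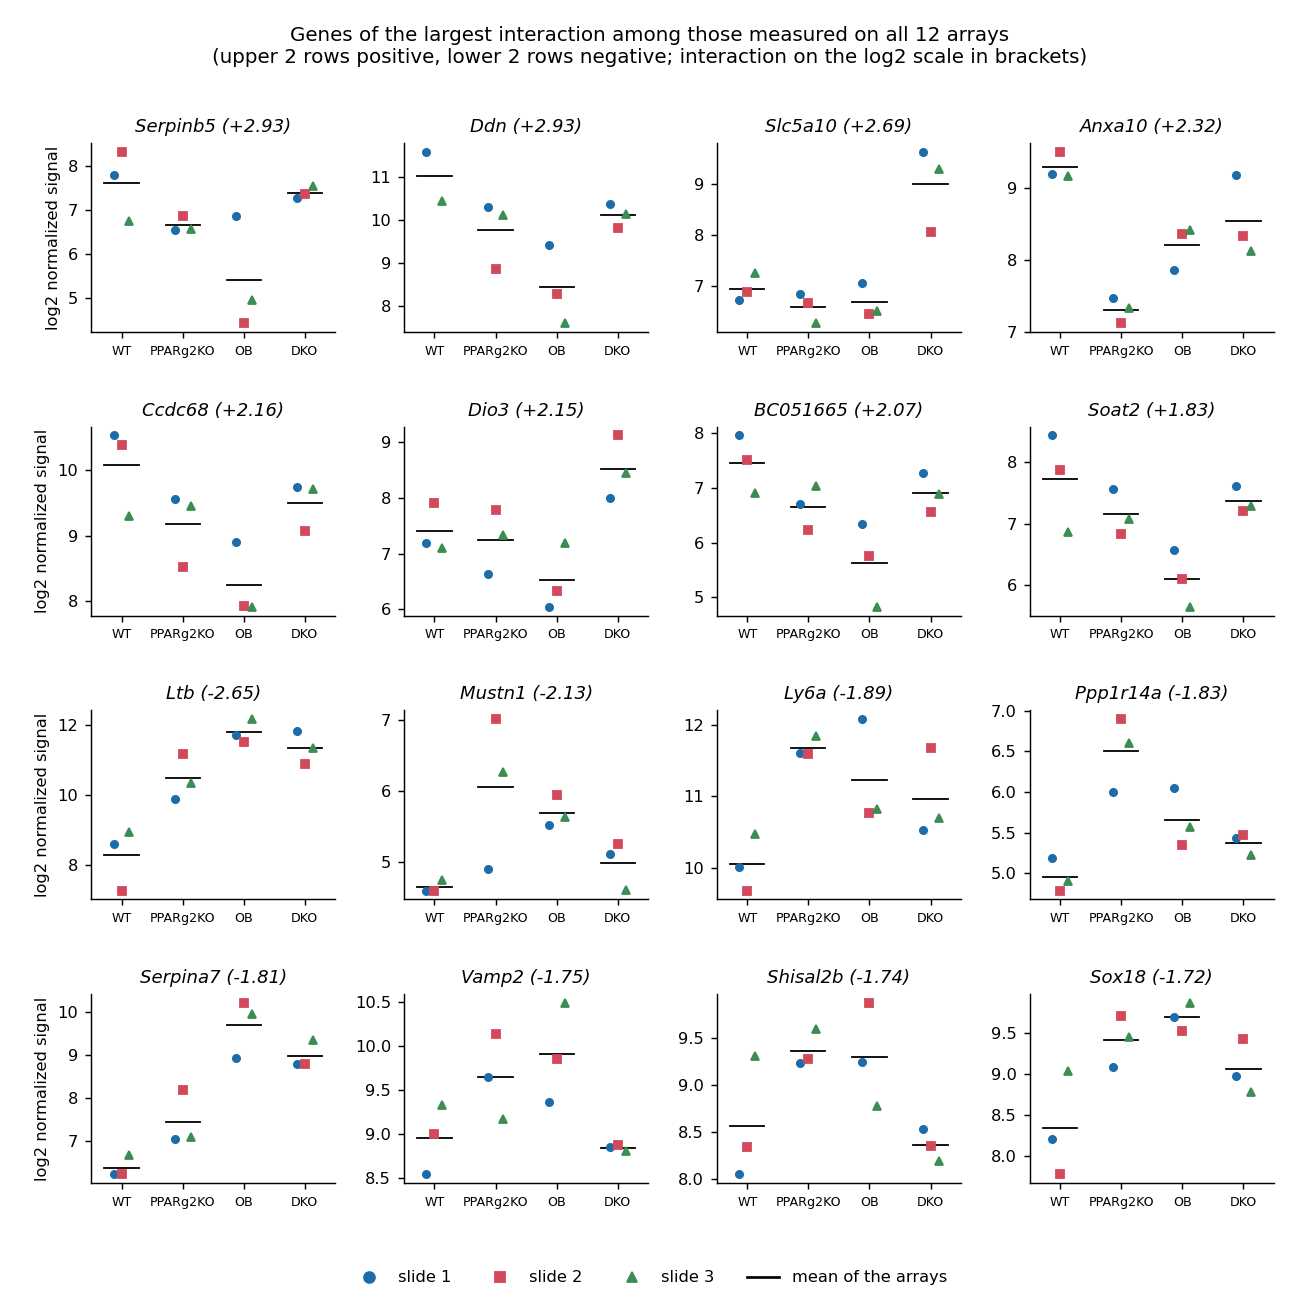
Log2 normalized signal of the 16 named genes of largest interaction on each of the 12 arrays (11 for Ddn), with the genotypes on the x axis, 1 point per array and a line at the mean of each genotype. The interaction stands in each title. Slc5a10 and Dio3 are high in DKO alone, and Anxa10 is lowest in PPARg2KO. For Ltb, Ly6a, Ppp1r14a and Serpina7 all WT arrays are below the other 9.

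The 8 genes of largest negative value, taken by the same rule from 230 genes, included an immune, a vascular, a contractile and a secretory gene. Ltb (NM_008518) encodes lymphotoxin beta, a membrane cytokine of lymphocytes. It read 8.60, 7.26 and 8.95 in WT, 9.88, 11.18 and 10.35 in PPARg2KO, 11.70, 11.53 and 12.18 in OB and 11.82, 10.88 and 11.35 in DKO. WT was below the other 9 arrays, and OB and DKO overlapped. The interaction was -2.65 (SE 0.67, 95% CI -4.17 to -1.13, unadjusted p = 0.00327, adjusted p = 0.257), with 2.20 on the lean and -0.45 on the obese background. Serpina7 (NM_177920), the thyroxine-binding globulin of plasma, read 6.22, 6.21 and 6.66 in WT, 7.05, 8.18 and 7.09 in PPARg2KO, 8.94, 10.22 and 9.97 in OB and 8.78, 8.78 and 9.36 in DKO. Again WT was lowest on every array, OB and DKO overlapped, and the interaction was -1.81 (SE 0.55, unadjusted p = 0.00929, adjusted p = 0.274). Its OB minus WT difference of 3.35 passed the adjusted test (adjusted p = 0.0111), as did that of Ltb, 3.53 (adjusted p = 0.0126).

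Sox18 and Ly6a are genes of blood vessels and stem cells. Sox18 (NM_009236), an endothelial transcription factor, read 8.20, 7.77 and 9.04 in WT, 9.09, 9.71 and 9.46 in PPARg2KO, 9.71, 9.53 and 9.88 in OB and 8.97, 9.43 and 8.78 in DKO. PPARg2KO was above WT and DKO below OB, both without overlap. The interaction was -1.72 (SE 0.44, 95% CI -2.72 to -0.73, unadjusted p = 0.00337, adjusted p = 0.257). Ly6a (NM_010738), the surface protein Sca-1 of stem, endothelial and lymphoid cells, read 10.01, 9.67 and 10.47 in WT, 11.61, 11.60 and 11.85 in PPARg2KO, 12.09, 10.77 and 10.82 in OB and 10.53, 11.68 and 10.70 in DKO. WT was below the other 9 arrays, OB and DKO overlapped widely, and the interaction was -1.89 (SE 0.58, unadjusted p = 0.00919, adjusted p = 0.274).

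Both genes linked to muscle had their highest mean in PPARg2KO. Ppp1r14a (NM_026731) encodes CPI-17, the inhibitor of myosin phosphatase in smooth muscle. It read 5.18, 4.78 and 4.90 in WT, 6.01, 6.90 and 6.60 in PPARg2KO, 6.05, 5.35 and 5.57 in OB and 5.43, 5.47 and 5.22 in DKO. WT was below the other 9 arrays. Its interaction of -1.83 (SE 0.34, 95% CI -2.61 to -1.05, unadjusted p = 4.4e-04, adjusted p = 0.213) was the best supported of the negative 8. Mustn1 (NM_181390), a small nuclear protein of muscle and cartilage, read 4.59, 4.59 and 4.74 in WT, 4.90, 7.02 and 6.27 in PPARg2KO, 5.51, 5.94 and 5.63 in OB and 5.10, 5.25 and 4.60 in DKO. Replicate 1 of PPARg2KO was far below the other 2, WT lay below PPARg2KO and DKO below OB throughout, and the interaction was -2.13 (SE 0.62, unadjusted p = 0.00732, adjusted p = 0.27).

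Vamp2 was the negative gene closest to insulin release. It encodes the SNARE protein of secretory granules and synaptic vesicles (NM_009497). The values were 8.54, 9.0 and 9.32 in WT, 9.64, 10.13 and 9.17 in PPARg2KO, 9.36, 9.86 and 10.49 in OB and 8.86, 8.87 and 8.81 in DKO. DKO was below OB on every array, and WT and PPARg2KO overlapped. The interaction was -1.75 (SE 0.46, unadjusted p = 0.00381, adjusted p = 0.258), and 2 other probes of the gene gave -1.53 (unadjusted p = 0.0143) and -1.63 (unadjusted p = 0.0149). Shisal2b (NM_029984) read 8.05, 8.34 and 9.31 in WT, 9.23, 9.28 and 9.59 in PPARg2KO, 9.25, 9.88 and 8.78 in OB and 8.54, 8.35 and 8.20 in DKO. DKO was below OB without overlap, WT replicate 3 reached the PPARg2KO range, and the interaction was -1.74 (SE 0.49, unadjusted p = 0.00587, adjusted p = 0.266).

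A second group of genes was well above background on every array of at least 1 genotype, but not on all 12, and comprises the 6 of smallest p in each direction. Strn (NM_011500), a scaffold of phosphatase complexes, read 5.09, 5.39 and 5.02 in WT, 4.50, 3.96 and 4.30 in PPARg2KO, 3.01, 3.71 and 2.74 in OB and 4.28, 3.99 and 4.64 in DKO. All OB arrays were below the other 9, and the interaction was 2.06 (SE 0.38, unadjusted p = 3.4e-04, adjusted p = 0.213). Cxcl2 (NM_009140), a chemokine that draws neutrophils, read 5.60, 4.84 and 5.74 in WT, 3.41, 4.42 and 4.10 in PPARg2KO, 4.36, 4.57 and 4.87 in OB and 5.18, 5.12 and 5.03 in DKO. WT was above PPARg2KO and DKO above OB without overlap, and the interaction was 1.92 (SE 0.41, unadjusted p = 0.0011). Icam5 (NM_008319), an adhesion molecule of neurons, read 4.38, 4.74 and 4.63 in WT, 4.00, 4.06 and 4.07 in PPARg2KO, 4.25, 4.35 and 4.44 in OB and 4.36, 4.64 and 4.66 in DKO. Its interaction was small, 0.75 (SE 0.16, unadjusted p = 0.00125), with PPARg2KO below the other 9 arrays and OB and DKO overlapping.

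For the other 3 positive genes of this group, further probes of the same gene gave smaller values or the opposite sign. These probes were dim themselves. Those of Cdk2 and Cyp2a4 were well above background on 0 arrays, and those of Erbb3 on 0, 3 and 5. Erbb3 (NM_010153), a receptor for neuregulins, read 4.92, 4.99 and 4.13 in WT, 4.30, 3.79 and 3.83 in PPARg2KO, 3.99, 3.74 and 3.40 in OB and 4.64, 5.0 and 4.80 in DKO. DKO was above OB without overlap and WT overlapped PPARg2KO, with an interaction of 1.81 (SE 0.36, unadjusted p = 6.6e-04), against 0.04, 0.81 and 0.56 for its 3 other probes. Cdk2 (NM_016756), a kinase of the G1 to S transition, read 4.09, 4.40 and 3.98 in WT, 2.44, 3.32 and 3.31 in PPARg2KO, 3.54, 3.16 and 3.10 in OB and 4.29, 3.73 and 3.88 in DKO. It was not well above background on any WT or PPARg2KO array, DKO was at least 1.38-fold above PPARg2KO, and its interaction of 1.83 (SE 0.36, unadjusted p = 6.6e-04) stood against 0.11 for the other probe. Such a lower limit sets the mean of the brighter group against the dimmest signals that still count as above background. Cyp2a4 (NM_009997), a steroid hydroxylase, read 4.45, 4.34 and 4.45 in WT, 4.48, 3.99 and 3.79 in PPARg2KO, 3.20, 3.23 and 3.33 in OB and 4.07, 3.85 and 4.21 in DKO. OB was below the other 9 arrays, with an interaction of 1.12 (SE 0.23, unadjusted p = 8.7e-04), and its 2 other probes gave -0.82 and 0.08.

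The 6 negative genes of this group were dim in WT. Kcnmb1 (NM_031169), the beta subunit of the smooth muscle BK potassium channel, read 1.42, 1.25 and 1.22 in WT, 2.56, 4.26 and 3.14 in PPARg2KO, 4.43, 4.43 and 5.26 in OB and 4.26, 3.32 and 3.89 in DKO. It was not well above background in WT, and OB was at least 1.86-fold higher than WT. Its fitted interaction was -2.90 (SE 0.59, unadjusted p = 7.8e-04). Pdcd1lg2 (NM_021396), which encodes the T cell inhibitory ligand PD-L2, read 1.00, 1.00 and 0.98 in WT, 2.80, 4.27 and 3.99 in PPARg2KO, 3.21, 3.34 and 3.95 in OB and 4.14, 3.49 and 3.46 in DKO. It was not well above background in WT either, the other genotypes overlapped each other, and the fitted value was -2.50 (SE 0.52, unadjusted p = 8.5e-04). Dbx2 (NM_207533), a homeobox factor, read 1.23, 1.28 and 1.25 in WT, 3.44, 3.91 and 3.17 in PPARg2KO, 4.40, 4.12 and 3.68 in OB and 4.75, 3.82 and 4.84 in DKO. DKO was at least 1.58-fold and OB at least 1.19-fold higher than WT, and the fitted interaction was -1.85 (SE 0.42, unadjusted p = 0.00159). Fitted values of genes not measured in WT depend on where the normalization puts unmeasured signals.

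Klhl31 (NM_172925), a kelch protein of muscle, read 3.63, 2.96 and 2.74 in WT, 4.43, 4.60 and 4.40 in PPARg2KO, 4.50, 5.19 and 5.66 in OB and 4.50, 4.92 and 4.56 in DKO. OB was at least 2.47-fold, DKO at least 1.80-fold and PPARg2KO at least 1.58-fold higher than WT, in which it was not well above background. Its interaction was -1.83 (SE 0.43, unadjusted p = 0.00191) and that of its other probe, well above background on 0 arrays, 0.27. Khdc3 (NM_025890), a maternal factor of the oocyte, read 3.12, 3.32 and 4.09 in WT, 4.30, 4.34 and 4.44 in PPARg2KO, 4.45, 4.84 and 4.39 in OB and 4.05, 4.15 and 3.65 in DKO. DKO was below OB and WT below PPARg2KO without overlap, with an interaction of -1.46 (SE 0.35, unadjusted p = 0.00209). Mxd3 (NM_016662), a partner of MAX that represses transcription, read 3.15, 2.73 and 2.64 in WT, 3.51, 3.74 and 3.41 in PPARg2KO, 4.49, 4.40 and 4.29 in OB and 4.00, 3.83 and 2.94 in DKO. OB was above the other 9 arrays and at least 1.5-fold higher than WT and 1.75-fold higher than PPARg2KO. The interaction was -1.52 (SE 0.36, unadjusted p = 0.00224), and a second probe gave -2.24 (unadjusted p = 0.0042).

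The smallest p-values of the whole table came from dim probes. AK052024, a transcript with no gene symbol here, was not well above background on any array. It read 2.00, 1.98 and 1.95 in DKO and 1.19 to 1.27 on the other 9 arrays, which gave 0.77 (SE 0.08, unadjusted p = 4.3e-06, adjusted p = 0.118), and with normexp background correction the value was -0.00. Gm5622 (NM_001013816) was well above background on 2 OB arrays only. It read 1.15, 1.15 and 1.13 in WT, 3.19, 2.61 and 2.84 in PPARg2KO, 3.64, 3.20 and 3.03 in OB and 2.87, 2.83 and 2.36 in DKO, with an interaction of -2.34 (SE 0.29, unadjusted p = 1.6e-05, adjusted p = 0.17) and -0.81 for its other probe.

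Among the 29 gene lists, a metabolic and an epithelial list had the highest share of positive members. In the list of cholesterol biosynthesis 14 of 23 genes (60.9%) were positive and 0 negative at an unadjusted p under 0.05, against 8.67% and 7.41% of all named genes, and 0 passed the adjusted test. The list's median interaction was 0.78, from -0.31 on the lean and 0.38 on the obese background, and OB had the lowest mean in 18 of the 23 genes. Hmgcs1 (NM_145942), the synthase that makes HMG-CoA for this pathway and the gene with a sterol motif above, read 11.81, 12.27 and 11.92 in WT, 11.60, 11.51 and 11.28 in PPARg2KO, 11.05, 10.95 and 10.47 in OB and 11.66, 11.19 and 11.68 in DKO. WT lay above PPARg2KO and DKO above OB on every array. Its interaction was 1.23 (SE 0.28, 95% CI 0.58 to 1.87, unadjusted p = 0.00184, adjusted p = 0.248). Fdps (farnesyl diphosphate synthase) had 1.35 (unadjusted p = 0.00383), Nsdhl (sterol decarboxylation) 1.07 (unadjusted p = 0.00363) and Fdft1 (squalene synthase) 0.97 (unadjusted p = 0.00129). Fdft1 read 10.87, 10.96 and 10.81 in WT, 10.52, 10.01 and 10.33 in PPARg2KO, 10.13, 10.14 and 10.02 in OB and 10.74, 10.24 and 10.44 in DKO, with OB within a narrow range below DKO.

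In the mean of these sterol genes both genotypes without PPARg2 were intermediate. It was 9.96 in WT, 9.63 in PPARg2KO, 9.57 in DKO and 9.27 in OB. All 4 named genes passed the adjusted test in OB against WT, with falls of 0.79 for Fdft1 (adjusted p = 0.0245), 1.18 for Hmgcs1 (adjusted p = 0.0198), 1.06 for Nsdhl (adjusted p = 0.0227) and 1.32 for Fdps (adjusted p = 0.0239) on the log2 scale. The regulators Srebf2 and Insig1 had interactions of 0.51 and 1.29, both at an unadjusted p under 0.05. Pmvk (-0.83), Sqle (-0.32) and Ebp (-0.30) had the other sign. The list median was 0.57, 0.45 and 0.89 within slides 1, 2 and 3, leaving out any 1 array left 11 to 15 positive members, and with normexp the median was 0.49. The study drew terms for sterol synthesis, cell junctions, immune response, TGF-beta signalling and oxidative phosphorylation, among others, from these same arrays. The lists of these themes are therefore no independent evidence of their direction.

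Cell contacts of epithelia followed the same layout. In the list of tight junction and desmosome genes 12 of 24 (50%) were positive and 0 negative, with a median of 0.55 and OB as the lowest genotype in 19. Cldn4 (claudin 4, a tight junction strand protein, NM_009903) read 12.88, 12.45 and 12.04 in WT, 11.87, 11.69 and 12.02 in PPARg2KO, 11.93, 11.42 and 11.05 in OB and 12.39, 12.34 and 12.60 in DKO. DKO was above OB and WT above PPARg2KO on every array, with an interaction of 1.58 (SE 0.35, 95% CI 0.78 to 2.37, unadjusted p = 0.0015, adjusted p = 0.233). The desmosomal plaque proteins Pkp2 and Pkp3 had 1.07 (unadjusted p = 9.1e-04) and 1.29 (unadjusted p = 0.00122), and the desmosomal cadherin Dsc2 1.01 (unadjusted p = 0.00124). Without 1 array at a time 10 to 14 members were positive.

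Exocrine markers were examined beside these groups, because duct and acinar cells also express junction genes. Of 23 duct and mucosal genes 8 (34.8%) were positive and 1 negative, with a median of 0.24, and the list's mean level was 9.07 to 9.17 in WT, 8.88 to 9.07 in PPARg2KO, 8.11 to 8.71 in OB and 8.51 to 8.94 in DKO. The duct keratin Krt19 (NM_008471) had 0.99 (unadjusted p = 0.0196) and was 13.99 to 14.95 in OB against 14.85 to 15.34 in DKO and 15.54 to 16.17 in the lean groups. Without 1 array at a time 2 to 7 duct genes were positive, with 2 without DKO replicate 3, 3 without OB replicate 3, 4 without PPARg2KO replicate 2, OB replicate 2 or DKO replicate 2 and 5 without WT replicate 1 or 2, and with normexp there were 4. The duct median was 0.48 with scaling to the 75th percentile. Acinar genes showed 2 of 25 positive (8%, against 8.67% of all named genes) and a median of 0.08. The 2 were Gp2 (0.90) and Ptf1a (1.85), both at an unadjusted p under 0.05. The defining Amy2a5 (-0.03) and Cpa1 (-0.08), at the bright end of the arrays, did not differ detectably. With scaling to the 75th percentile the acinar median was 0.28. Without PPARg2KO replicate 1 there were 5 positive acinar genes, where 8.73% of all named genes were positive. What part duct cells had in the sterol and junction values was not tested.

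**Figure D3:**
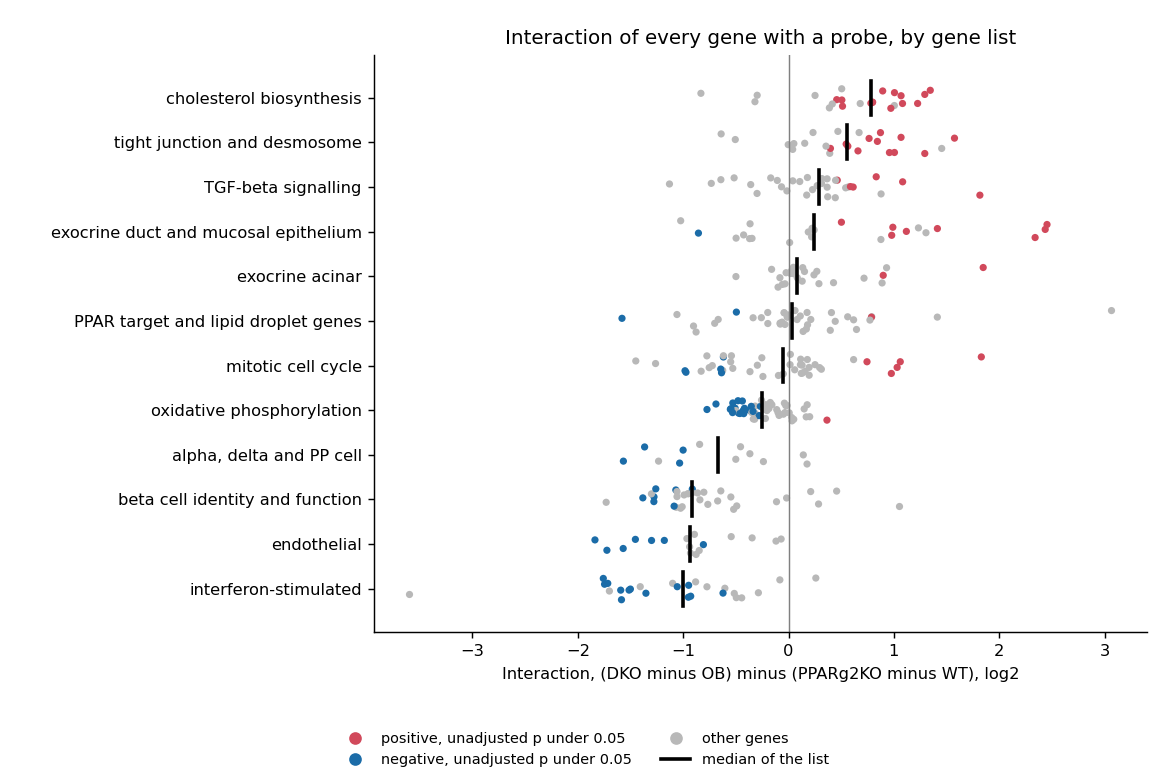
Interaction of each gene with a probe in 12 of the gene lists, on the log2 scale, with 1 point per gene, coloured where the unadjusted p was under 0.05, and a bar at each list's median. Cholesterol biosynthesis and junction genes lie mostly to the right of 0, endocrine, endothelial and interferon-stimulated genes mostly to the left.

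TGF-beta signalling, a growth-restraining pathway, held 6 positive genes of 32 (18.8%) and 0 negative, with a median of 0.29. Tgif1, a corepressor of the pathway, had 1.08 (unadjusted p = 0.00521), and the signal transducers Smad2 and Smad3 had 0.83 (unadjusted p = 0.00868) and 0.59 (unadjusted p = 0.0163). Smad3 (NM_016769) read 8.86, 8.82 and 8.65 in WT, 8.72, 8.53 and 8.78 in PPARg2KO, 8.43, 7.95 and 8.04 in OB and 8.45, 8.76 and 8.68 in DKO, with OB below DKO by a narrow margin. Leaving out 1 array at a time left 3 to 6 positive members, 3 without DKO replicate 3, and the median was 0.14 without OB replicate 3 and 0.10 with normexp. Negative members numbered 3 without WT replicate 3, 2 with the replicate block and 4 with array weights. None of these counts exceeded the share among all named genes, which was 12.3%, 7.82% and 14.7% in these fits. Fatty acid synthesis did not move one way, with 2 of 17 genes on each side. Fasn (fatty acid synthase, 1.19, unadjusted p = 0.00494) and Acacb (acetyl-CoA carboxylase 2, 1.65, unadjusted p = 0.00501) were positive. Thrsp (a lipogenic regulator, -1.63, unadjusted p = 7.5e-04) and Dgat2 (triglyceride synthesis, -1.02, unadjusted p = 9.9e-04) were negative.

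Genes of the PPAR pathway itself were near the background share. Among 38 PPAR target and lipid droplet genes 1 was positive and 2 negative (2.63% and 5.26%). The median was 0.04 and lay between -0.14 and 0.11 with 1 array left out. Without WT replicate 3 and with normexp 5 members were negative, where 12.3% and 7.74% of all named genes were negative. The named members were Fabp3 (fatty acid binding protein, -1.58, unadjusted p = 0.00846), Scp2 (sterol carrier protein, -0.50) and Dbi (acyl-CoA binding protein, 0.79). None of the 12 PPAR receptors and partners reached an unadjusted p under 0.05.

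Interferon-stimulated genes had the clearest negative values. In this list 13 of 26 (50%) were negative and 0 positive, against 7.41% and 8.67% of all named genes. The median was -1.0, from 0.88 on the lean and -0.19 on the obese background, and WT had the lowest mean in 25 genes. Ifit1 (NM_008331), an antiviral protein that binds foreign RNA and whose promoter is shown above, read 7.68, 7.58 and 8.18 in WT, 8.26, 8.93 and 9.32 in PPARg2KO, 10.04, 9.78 and 10.08 in OB and 9.38, 9.78 and 9.31 in DKO. WT was below PPARg2KO throughout, and OB and DKO met at their edges. The interaction was -1.50 (SE 0.38, 95% CI -2.36 to -0.65, unadjusted p = 0.00316, adjusted p = 0.257). Ifit3 (NM_010501) had -1.72 (unadjusted p = 0.00766), the immunoproteasome subunit Psmb9 -1.59 (unadjusted p = 0.00612) and the interferon-inducing factor Irf7 -1.59 (unadjusted p = 0.0198). Within slides 1, 2 and 3 the list median was -0.94, -1.13 and -1.27. The number of negative members was 8 without WT replicate 2 or without PPARg2KO replicate 3 and 19 without PPARg2KO replicate 1. Of all named genes 4.93%, 7.48% and 8.4% were negative in these fits.

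Lymphocyte markers were highest on the obese arrays and on 1 lean array. The mean level of 27 T cell genes was 3.51 to 3.64 in WT, 3.87, 6.14 and 3.80 on replicates 1, 2 and 3 of PPARg2KO, 5.76 to 7.19 in OB and 5.12 to 6.74 in DKO. For 21 B cell genes it was 3.10 to 3.79 in WT, 3.06 to 7.05 in PPARg2KO, again with replicate 2 at the top, 6.07 to 7.29 in OB and 5.89 to 7.08 in DKO. The median interaction was -1.52 for T cell and -1.64 for B cell genes. It was -0.43 and -0.46 without PPARg2KO replicate 2 and -0.21 and -0.28 with normexp. Each list held 2 negative members (7.41% and 9.52%, against 7.41% of all named genes) and 0 positive ones (against 8.67%). The dimmest signal counted as well above background was 3.85, 4.04 and 3.55 on WT replicates 1, 2 and 3. The WT levels of both lists thus lay close to or below that limit. Without DKO replicate 2 the T cell median was -0.90. Without PPARg2KO replicate 1 there were 6 negative B cell genes, where 8.4% of all named genes were negative. The defining markers Cd3e (0.90, unadjusted p = 0.301) and Cd79a (-0.05, unadjusted p = 0.973) did not differ detectably. MHC class II genes had 0 of 9 in either direction and a median of -1.32, which was -0.42 without PPARg2KO replicate 2 and -0.41 with normexp. The interferon list's median stayed between -1.23 and -0.87 when any 1 array was left out, PPARg2KO replicate 2 included.

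Endothelial genes were negative without exception in sign. All 17 had an interaction below 0, 7 (41.2%, against 7.41% of all named genes) at an unadjusted p under 0.05, with a median of -0.93. Their mean level was 8.34 to 9.34 in WT, 9.04 to 9.80 in PPARg2KO, 9.76 to 10.05 in OB and 9.44 to 9.95 in DKO. Egfl7, a factor secreted by endothelium (NM_178444), had -1.45 (SE 0.42, unadjusted p = 0.00697), Tie1, an endothelial receptor, had -1.30, and Vwf, the clotting factor stored in endothelium, had -1.84 (unadjusted p = 0.0226). The defining marker Pecam1 had -0.12 (unadjusted p = 0.844). Leaving out 1 array at a time gave 13 negative members without WT replicate 3, where 12.3% of all named genes were negative. There were 4 without WT replicate 1 or OB replicate 3, where 4.73% and 5.27% of all named genes were. Without WT replicate 2, PPARg2KO replicate 3, DKO replicate 1 or DKO replicate 3 there were 3, against 4.77 to 7.48% of all named genes. Without any other array there were 5 to 10.

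Beta cell genes were negative through the obese side. In 33 genes of beta cell identity and function 7 (21.2%) were negative and 0 positive, with a median of -0.91, from 0.15 on the lean and -0.72 on the obese background. Nkx2-2 (NM_010919), a transcription factor that maintains beta cell identity, read 7.85, 8.44 and 9.30 in WT, 9.05, 8.86 and 8.99 in PPARg2KO, 9.36, 9.89 and 9.63 in OB and 8.80, 8.78 and 8.45 in DKO. OB was above DKO without overlap, and WT replicate 3 was above all PPARg2KO arrays while the other 2 were below them. The interaction was -1.38 (SE 0.44, unadjusted p = 0.0115). Kcnj11, the pore of the ATP-sensitive potassium channel, had -1.09 (unadjusted p = 0.0189), Isl1 -1.28 (unadjusted p = 0.0219) and Nkx6-1 -1.07 (unadjusted p = 0.0226). Ins1 had -0.77 (unadjusted p = 0.0836) and Ins2 -0.02 (unadjusted p = 0.828), on probes at the bright end of the arrays.

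The WT arrays were far apart in these genes. The mean level of the beta cell list was 9.65, 10.12 and 10.93 on WT replicates 1, 2 and 3, a range wider than the difference between any 2 genotype means. Without WT replicate 3 there were 21 negative beta cell genes, against 12.3% of all named genes negative in that fit, with array weights there were 22 (against 14.7%), without OB replicate 2 or DKO replicate 3 there were 3, and without WT replicate 1, WT replicate 2 or OB replicate 3 there were 4. Of the other endocrine genes, 4 of 12 (33.3%) were negative: Ppy (pancreatic polypeptide, -1.37, unadjusted p = 0.00688), Sst (somatostatin, -1.57, unadjusted p = 0.00935), Rbp4 (-1.0) and Irx2 (-1.03). Their list median was -0.67, -0.38 with normexp and -1.07 without WT replicate 3. Glucagon, Gcg, had -0.24 (unadjusted p = 0.0965). Sst (NM_009215) read 14.99, 15.47 and 16.30 in WT, 15.79, 16.23 and 16.28 in PPARg2KO, 15.63, 16.23 and 16.10 in OB and 15.39, 14.83 and 14.58 in DKO, so that WT replicate 3 was the highest WT array here as well. DKO lay below OB on every array.

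**Figure D4:**
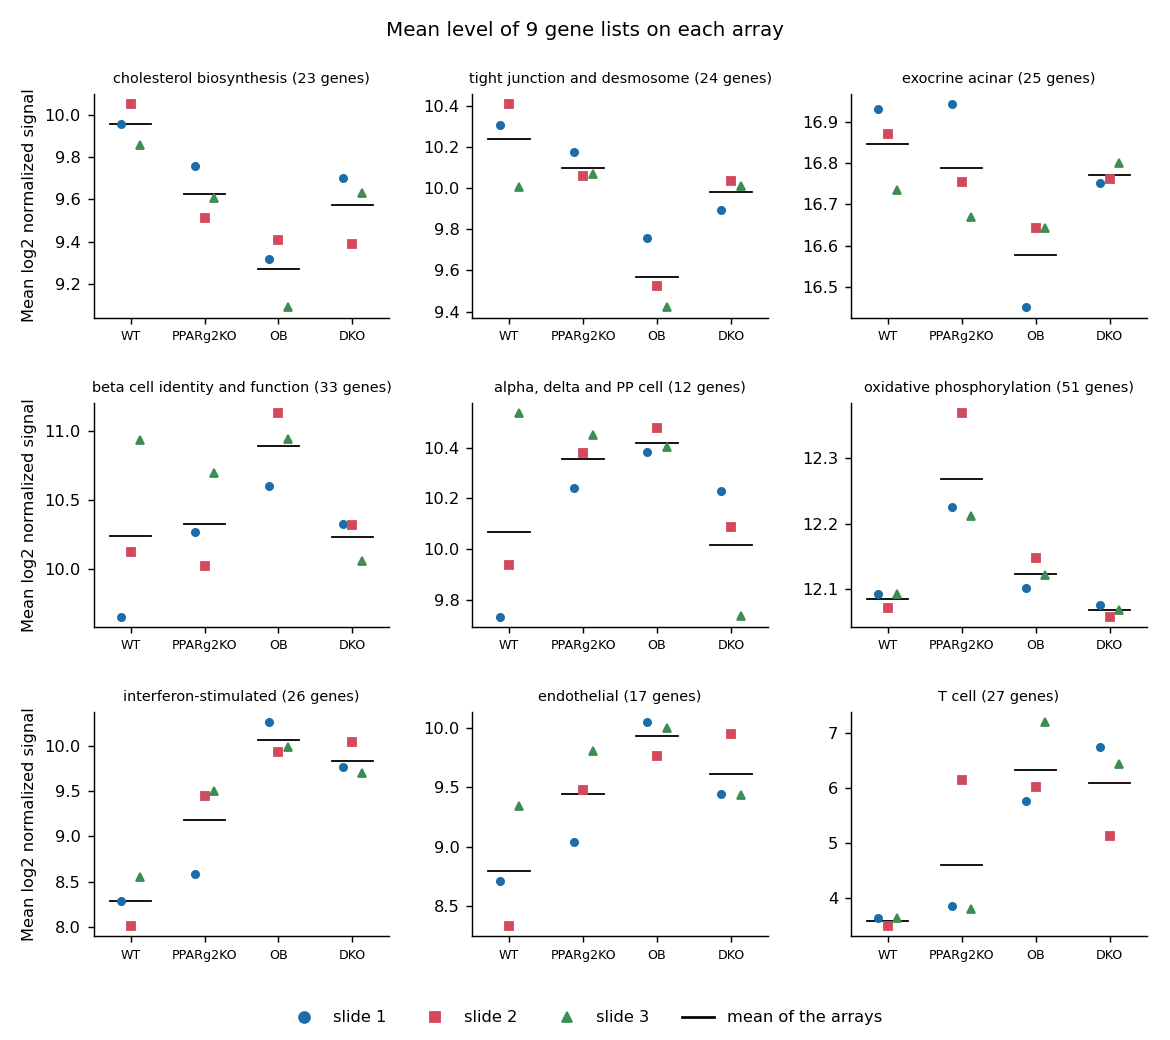
Mean log2 normalized signal of 9 gene lists on each of the 12 arrays (y axis), by genotype (x axis) and slide (symbol), with a line at the mean of the 3 arrays. Axes differ between panels. OB is lowest for sterol and junction genes, WT is lowest for interferon-stimulated genes, WT replicate 3 (slide 3) is the highest WT array for beta cell, other endocrine and endothelial genes, and PPARg2KO replicate 2 (slide 2) stands out for T cell genes.

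Oxidative phosphorylation had small values with little spread. In 51 genes 19 (37.3%, against 7.41% of all named genes) were negative and 1 positive. The median was -0.26, from 0.18 on the lean and -0.06 on the obese background. PPARg2KO was above WT in 43 genes and DKO above OB in 17. The list's mean was 12.07 to 12.09 in WT, 12.21 to 12.37 in PPARg2KO, 12.10 to 12.15 in OB and 12.06 to 12.08 in DKO. Ndufs3, a subunit of complex I (NM_026688), read 11.76, 11.68 and 11.63 in WT, 11.98, 12.12 and 11.91 in PPARg2KO, 11.94, 11.98 and 11.98 in OB and 11.78, 11.79 and 11.68 in DKO. PPARg2KO lay above WT and DKO below OB without overlap, with an interaction of -0.53 (SE 0.11, 95% CI -0.77 to -0.29, unadjusted p = 7.9e-04, adjusted p = 0.221). Cox7a2 (complex IV) had -0.69 (unadjusted p = 0.00259), and Atp5b (the catalytic subunit of ATP synthase) 0.36. With arrays scaled to their 75th percentile instead, 4 of the 51 genes were negative. That was near the 6.56% of all named genes negative in the same fit, while the list median was -0.22.

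Proliferation and growth genes varied with the arrays used. The 43 mitotic cell cycle genes held 5 positive and 5 negative members, 11.6% each against 8.67% and 7.41% of all named genes. Their median was -0.05. Leaving out 1 array at a time gave 3 to 6 positive and 0 to 10 negative members. There were 0 negative without DKO replicate 2 and 10 without DKO replicate 1. In these 2 fits 6.1% and 5.49% of all named genes were negative. Among 21 genes of beta cell expansion and serotonin synthesis, Cish (a feedback inhibitor of growth hormone and prolactin signalling, 0.64, unadjusted p = 0.00801) was positive, Igf1r (the IGF-1 receptor, -1.0, unadjusted p = 0.01) and Tnfrsf11b (osteoprotegerin, -1.04) were negative, and the median was 0.03 (-0.17 to 0.19 with 1 array left out, the lowest without replicate 2 and the highest without replicate 3 of PPARg2KO). Igf1r (NM_010513) read 9.18, 9.74 and 9.94 in WT, 9.54, 9.60 and 9.96 in PPARg2KO, 10.10, 10.21 and 10.66 in OB and 9.25, 9.50 and 9.46 in DKO, with OB above DKO and the lean groups overlapping.

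One WT array decided how many probes passed. Without WT replicate 3, 685 probes passed the adjusted test, among them Anxa10, Soat2, Shisal2b, Sox18, Strn, Erbb3, Khdc3, AK052024 and Gm5622, while leaving out any other array gave 1 to 12. Probes at an unadjusted p under 0.05 were then 4534 positive and 3896 negative. WT replicate 3 was the WT array nearest to the PPARg2KO mean for 13 of the 16 genes of largest interaction, for 104 of the 135 list members at an unadjusted p under 0.05 and for 323 of 627 list members in all. It also had the lowest weight, 0.42, when limma estimated how well each array fitted its group. The labels give no reason to set this array aside, so all values above include it. The study's methods report no outlier array, yet describe 1 of its groups as smaller than 3 arrays, without naming the group.

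**Figure D5:**
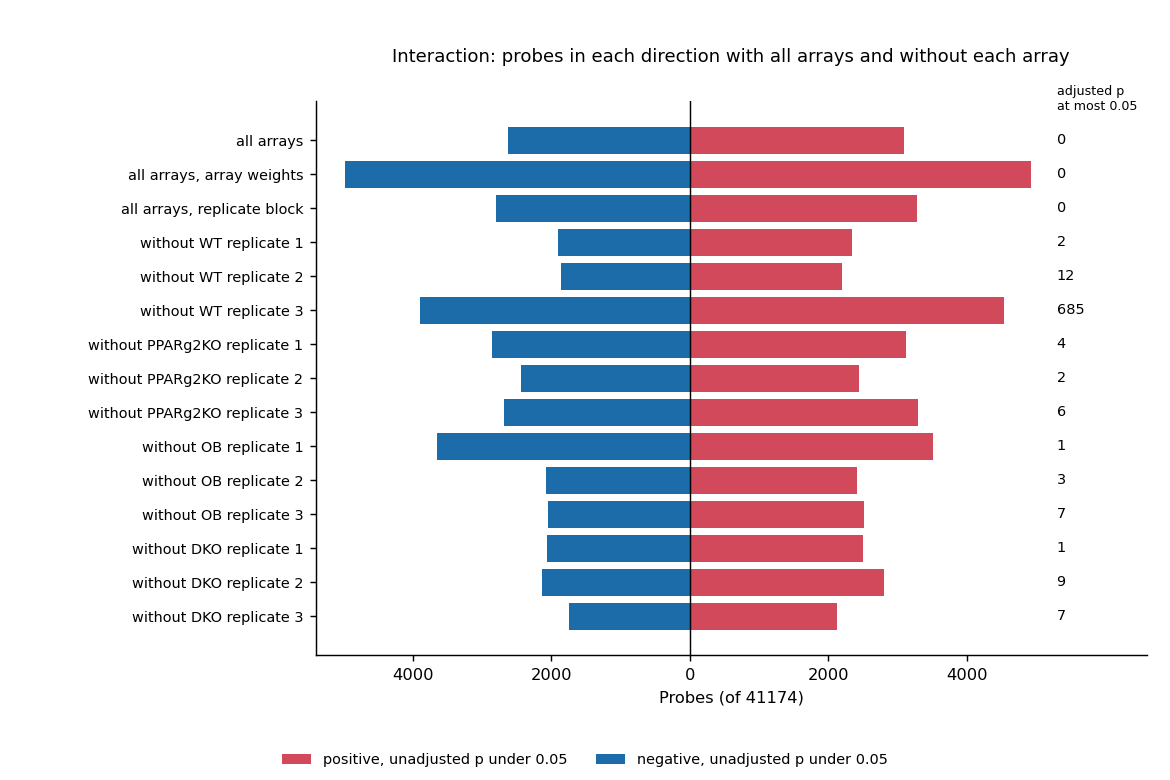
Number of probes (x axis, of 41174) with a positive and with a negative interaction at an unadjusted p under 0.05, with all 12 arrays, with array weights or the replicate block, and without each array in turn. The column at the right counts probes past the adjusted test. With an array left out the counts run from 2131 positive and 1744 negative without DKO replicate 3 to 4534 and 3896 without WT replicate 3.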

How the data were processed

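RNA from pooled mouse islets was hybridised to 12 single-colour (Cy3) arrays of the Agilent Whole Mouse Genome 4x44K design, 3 for each genotype, and samples were grouped by the genotype in the labels. The deposited files hold, per the file headers, the intensity of each spot as read and background-subtracted by Feature Extraction 10.1.1.1, with no normalization between arrays. Of 45018 spots an array, 1639 control spots were left out, and so were 919 spots over all arrays that the scanner software called outliers. No spot was saturated. The processed signal was normalized by quantiles, put on the log2 scale and averaged over the spots of a probe, which gave 41174 probes. RefSeq accessions gave 25097 probes a symbol, and for each of 17305 genes the probe of highest mean signal was used. The authors' own normalized values, deposited on a log2 scale, served as an alternative. The number of arrays limits the precision.

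A limma fit (lmFit and eBayes, version 3.58.1, with R 4.3.3 and version 1.17.8 of the data.table package) whose only factor was genotype gave the interaction, with Benjamini-Hochberg adjustment over all probes. The array block of the study's methods could not be fitted with 1 sample an array. Each array being a pool, p-values measure the spread between 3 pools a genotype, which may be in part technical. Named on every array are Pparg and Lep, the 8 largest values in each direction among genes well above background on all arrays with an unadjusted p under 0.01, the 6 of smallest p in each direction among genes well above background on every array of at least 1 genotype but not on all 12, and the probe of smallest p in each direction. From each of 29 gene lists at most 4 members of smallest p and defining cell type markers were named by rule, and further members after their values were seen. The members and lists were chosen with earlier results of these data known, and list counts are descriptions with no test. A few list members are not reported here by name.

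The alternatives were scaling to the 75th percentile, quantile normalization of log2 values, normexp (offset 50, on the median signal and median background, as the files hold no mean signal), a filter for probes well above background throughout at least 1 genotype (24297 kept), outlier spots kept, array weights, the replicate number as a block, the authors' values, 1 probe a gene, and each array left out in turn. Replicate numbers coincide with slides. Deviations of same-numbered arrays from their group means correlated by -0.20 to 0.26 on slide 1, -0.10 to 0.03 on slide 2 and -0.27 to 0.23 on slide 3, and the block was kept as an alternative. The fit was tested on simulated data with known interactions. Promoter windows were taken from RefSeq (GRCm38.p6), and the genome build of the array design is not given in the sources used here.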

Additional observations from a re-analysis of the deposited data

How the results depend on the processing

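The count of probes past an adjusted p of 0.05 was 0 under 8 alternatives, 1 (AK052024, adjusted p = 0.0434) with the authors' values, and 1 to 685 when 1 array was left out, 685 being without WT replicate 3 and 12 the next highest. Positive probes at an unadjusted p under 0.05 numbered 2131 to 4534 and negative ones 1744 to 3896 with 1 array left out. With array weights they were 4931 and 4981, and with 1 probe a gene 1478 and 1288, where fewer probes were tested. The cause of the other shifts was not tested. Of all named genes 5.68 to 12.7% were positive and 4.73 to 12.3% negative with 1 array left out. List counts with an array left out are to be read against these shares. Scaling to the 75th percentile gave 2638 and 2526 and moved the median of all probes by 0.08. With the replicate number as a block 0 probes passed, 3290 were positive and 2793 negative, and the smallest adjusted p was 0.144. The block changed no call of a named gene. Named genes kept direction and side of the threshold in 656 of their recomputed values, passed it in 10, of which 9 were without WT replicate 3, and turned in 1, AK052024 with normexp (-0.0013). The median of all named genes, 0.03, became -0.00070 with normexp and -0.0058 with the filter on dim probes. Of the list medians 549 recomputed values moved by less than the spread and 79 by more. Genes near background, such as the second group, are limited by signal over background.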

Other observations

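Stromal and muscle genes gave single members of large value without a shared direction. Among 25 fibroblast and stellate cell genes Tagln, an actin-binding protein of smooth muscle, had an interaction of -1.42 (unadjusted p = 0.00143) and Thbs4, a matrix thrombospondin, 2.55 (unadjusted p = 0.00278), while the defining Col1a1 had 0.51 (unadjusted p = 0.61) and the median was 0.07. That median was -1.09, 0.57 and 0.42 within slides 1, 2 and 3. It ran from -0.28 without DKO replicate 2 to 0.68 without OB replicate 1. In the latter fit 5 genes were positive, against 10.5% of all named genes. The list mean was 10.08 on OB replicate 1 and 8.76 and 8.64 on replicates 2 and 3. Tagln read 9.33, 9.31 and 9.99 in WT, 10.29, 10.39 and 10.32 in PPARg2KO, 10.47, 10.59 and 9.93 in OB and 9.61, 9.96 and 9.52 in DKO, so WT was below PPARg2KO and OB met DKO. In the skeletal muscle list 1 of 16 genes (6.25%) was positive, Acta1 (skeletal actin, 1.14, unadjusted p = 0.00298), and 1 negative. Ckm was well above background on 0 arrays, but 7 of the 16 genes were so on every array of at least 1 genotype.

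Of all named genes 8.67% were positive and 7.41% negative at an unadjusted p under 0.05, beside which the counts here stand. Immediate early genes, which respond to handling, had 2 of 23 positive (8.7%), Klf4 (1.41) and Klf6 (1.17), and a median of 0.20. That median was 0.06 without PPARg2KO replicate 3. Without WT replicate 3 there were 5 positive, against 12.7% of all named genes. ER stress genes had 1 of 26 positive and 2 negative (3.85% and 7.69%) with a median of -0.27. The median was -0.51 without OB replicate 1 and -0.12 without OB replicate 3. Negative members numbered 10 without OB replicate 1, 6 without WT replicate 3 and 8 with array weights. Of all named genes 11.3%, 12.3% and 14.7% were negative in these fits. Of the macrophage and dendritic cell genes 1 of 25 was positive (4%, Fcgr3, 1.49), and of the NK and cytotoxic genes 1 of 17 negative (5.88%). Of the clock genes 1 of 18 was negative (5.56%), and 4 without OB replicate 1, where 11.3% of all named genes were. Neuronal and Schwann cell genes had 1 positive (9.09%) and 2 negative (18.2%) of 11, and fat cell genes 1 negative of 11 (9.09%). Of the 7 erythroid genes 0 reached an unadjusted p under 0.05 by limma.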
